A study of Mus musculus with 4 samples.

Results

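Tight junctions seal the cleft between neighbouring endothelial cells (ECs), which form the inner lining of vessels. The 9 genes described here encode the claudins Cldn5 and Cldn12, the four-span membrane proteins Ocln and Marveld2, the tricellular contact protein Lsr, the junctional adhesion molecules F11r, Jam2 and Jam3, and the scaffold Tjp1. They were taken by their gene symbol from count tables that list 23282 entries, and all 9 symbols were found, each on 1 line. The tables hold RNA-seq counts from 2 libraries of brain parenchyma ECs and 2 libraries of dura mater ECs. Both tissues came from C57BL/6J mice aged 8 weeks, and neither the labels nor the methods name a transgene or a treatment for these libraries. According to the methods, red cells were lysed and dissociated cells were sorted by FACS (fluorescence-activated cell sorting) with antibodies to the endothelial antigen CD31, the leukocyte antigen CD45 and the red cell antigen TER-119, without the gate for ECs being spelled out. Brain ECs went through an extra magnetic CD31 enrichment before the sort, and this step and the tissue cannot be told apart. How many mice were pooled in a library, and whether the libraries of a tissue came from separate mice, is not stated, so p-values measure the spread between these libraries, which may be technical.

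In a tight junction, claudins and occludin form strands within the membrane, junctional adhesion molecules lie beside them, and ZO-1, the product of Tjp1, ties the strands to actin. At corners where 3 cells meet, Lsr (angulin-1) recruits Marveld2 (tricellulin). Cldn5 is the main claudin of the blood-brain barrier, whereas dural vessels lie outside that barrier.

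Libraries held 13518973 to 16096203 counts, given below as CPM, counts scaled to 1e+06 per library after correction for composition (TMM). Replicates were noisy: of symbols with at least 64 counts in either brain library, 31.3% had 7 or fewer in the other, and for the dura mater it was 30.7%. None of the 9 genes met this limit. Ocln (8 and 170 counts) and Cldn12 (16 and 400) were still far apart in dura mater ECs, and Marveld2 never reached 64. Dura mater replicate 2, the higher in both pairs, held 9835 symbols with at least 64 counts. Replicate 1 held 7281, and the brain libraries 6700 and 6608. With 1 to 7 counts it held 881 symbols, against 2375 in replicate 1 and 2117 and 2436 in brain ECs. The cause of this difference was not tested. The labels were checked with a few marker genes. Pecam1 had 8390 to 23619 counts and Cdh5, the endothelial cadherin, 4708 to 7931 counts per library. Slc2a1, the glucose carrier of brain ECs, gave counts of 172343 and 135461 in brain ECs against 20064 and 26807 in the dura mater. Mfsd2a, a lipid carrier of brain ECs, had 22073 and 17712 counts versus 955 and 490, and Plvap, a diaphragm protein of leaky vessels, had 0 and 8 counts versus 12469 and 20241. Red cell genes summed to 18010 and 25690 CPM in brain ECs and to 1496 and 762 CPM in dura mater ECs although red cells had been lysed and a TER-119 antibody was used, with Slc4a1, the anion exchanger of red cells, at 0 in all 4 libraries.

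Cldn5 and Lsr were lower in dura mater ECs than in brain ECs, each by between 5 and 6 fold, and were the 2 of the 9 genes that passed the test. The means of Ocln were 20.5-fold apart in the same direction, but its replicates spread widely and it did not pass. F11r and Jam2 lay at overlapping levels in both tissues, Tjp1 and Jam3 did not pass, and Cldn12 and Marveld2 were close to the detection limit in most libraries. With an adjusted p under 0.05 required in the quasi-likelihood test of edgeR, 2 of the 9 were lower and 0 higher, where 0.610% of the 9347 genes tested differed, 0.182% lower and 0.428% higher in dura mater ECs. With scaling to 8 pan-endothelial genes 4 genes were lower and 31 higher in all, against 17 and 40 here. In DESeq2 it was 3 lower (with Ocln) and 0 higher, among 8 genes, as Marveld2 was given no adjusted p. Of all 9347 genes 8.67% differed there, 2.03% lower and 6.63% higher. Genes without an adjusted p are included in that total, so the share among the remaining genes is larger. All 9 genes passed the filter on low counts. Their median log2 fold change (log2 ratio), dura mater over brain, was -0.32, against -0.01 over all genes tested. This median is the value of F11r, so putting Cldn12 at its lower bound could not move it. Of the 9 values 5 were below 0, against 50.2% of all genes.

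**Figure D1:**
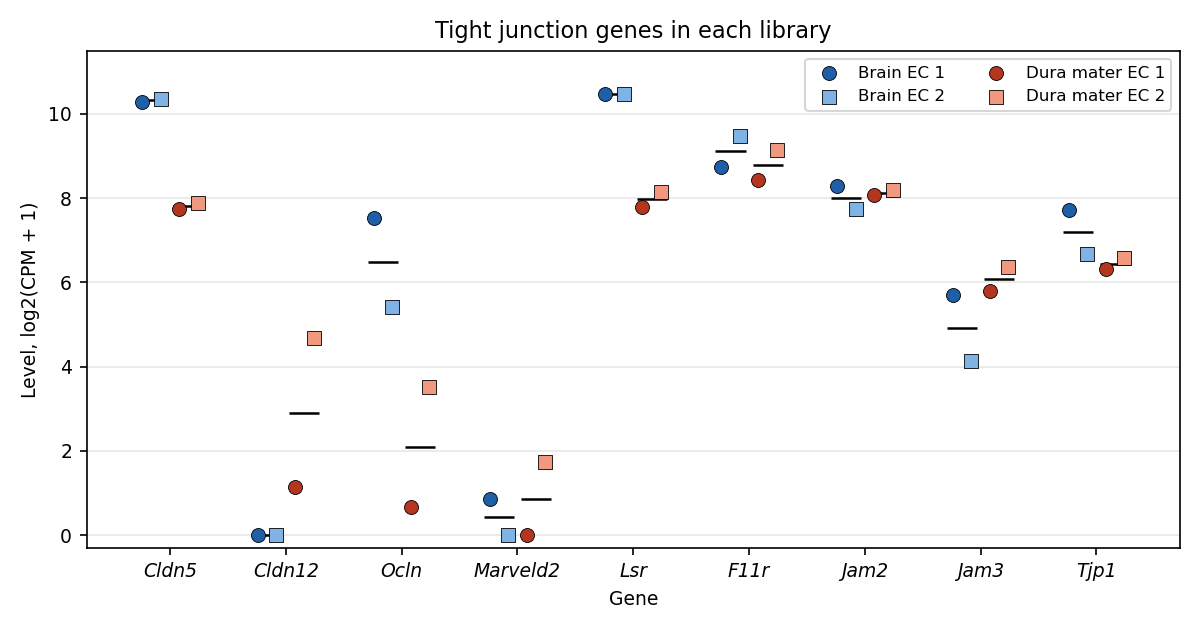
Level of each gene in each library, as log2(CPM + 1) on the vertical axis, with genes along the horizontal axis; symbols are libraries and black lines the mean of these values over the 2 libraries of a tissue. Cldn5 and Lsr sit in tight pairs with brain ECs above dura mater ECs, while the libraries of F11r and Jam2 interleave.

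Cldn5 (claudin-5; chromosome 16, 18776847 to 18778262, plus strand, GRCm38, a single exon) gave 18081 and 17419 counts in brain replicates 1 and 2, against 2857 and 3836 in dura mater replicates 1 and 2, the order kept from here on. Scaled, this was 1247 and 1317 CPM against 213 and 235 CPM. Both brain libraries were high, both dura mater libraries were low, and the groups did not overlap. The means were 1282 ± 49.0 and 224 ± 15.5 CPM (SD, n = 2), 5.72-fold lower in dura mater ECs. The log2 ratio was -2.52 (SE 0.33, 95% interval -3.32 to -1.72, edgeR adjusted p 0.0388). Since these are sorted populations in bulk, fewer cells that express a gene and less RNA per cell cannot be told apart.

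Lsr (chromosome 7, 30957770 to 30973464, minus strand) encodes a receptor for lipoproteins that also marks tricellular contacts. It gave counts of 20757 and 18918 in brain ECs against 2973 and 4648 in the dura mater, or 1432 and 1430 CPM against 222 and 285 CPM. The brain libraries were nearly equal and the dura mater libraries lay far below them, with no overlap. The means were 1431 ± 1.39 and 253 ± 44.6 CPM (n = 2), 5.65-fold lower in dura mater ECs. Its log2 ratio was -2.50 (SE 0.34, 95% interval -3.32 to -1.68, edgeR adjusted p 0.0435). The antisense genes Gm17077 and Gm4673 cover 44.7% of the exon length of Lsr and 70.6% of its last 500 exon bases, where a 3' library reads. Neither has a row in the count tables and the use of strand in counting is not stated, so the Lsr counts are uncertain.

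Both calls lay close to the threshold. Without dura mater replicate 1 the adjusted p was 0.0634 for Cldn5 and 0.0743 for Lsr, and without dura mater replicate 2 it was 0.0668 and 0.0550, so that neither passed in these fits. When libraries were scaled to 8 pan-endothelial genes, the log2 fold changes were -2.61 for both, with adjusted p of 0.0916 and 0.0869. Over all 17 alternatives, the log2 fold change ran from -2.61 to -2.38 for Cldn5 and from -2.71 to -2.36 for Lsr. The adjusted p ran from 6.0e-09 to 0.0916 for Cldn5 and from 1.5e-09 to 0.0869 for Lsr, in each case lowest in DESeq2.

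Ocln (occludin; chromosome 13, 100496507 to 100552718, minus strand) gave counts of 2662 and 556 in brain ECs against 8 and 170 in the dura mater, or 184 and 42.03 CPM against 0.597 and 10.4 CPM. Every brain library lay above every dura mater library, but replicates were 4.37-fold apart in brain ECs and 17.5-fold apart in dura mater ECs. The log2 ratio was -4.32 (SE 1.82, 95% interval -8.73 to 0.08), and Ocln did not pass (edgeR adjusted p 0.466). Past the threshold it went in DESeq2 (adjusted p 0.0359) and in edgeR without brain replicate 2 (adjusted p 0.00144). Over the alternatives its log2 fold change ran from -7.26, without dura mater replicate 2, to -2.98, without brain replicate 1, and its adjusted p from 0.00144 to 0.780.

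Because Cldn5, Lsr and Ocln were the members with the lowest fold changes, the 250 bases before their RefSeq start sites (GRCm38.p6) are shown, 5' to 3' on the gene's strand. RefSeq windows matched 7 of the 9 genes, all but Jam2 and Jam3. Capitals mark matches on either strand to CAGGTG (an E-box bound by zinc-finger repressors), CTTTGA (core of TCF/LEF sites), CCGGAA (core of ETS sites), CCAAT and GGGCGG (GC box), and no match overlaps another. Cldn5 is at chr16:18776597-18776846 on the plus strand, Lsr at chr7:30973470-30973719 on the minus strand, and Ocln at chr13:100552719-100552968 on the minus strand.
Cldn5: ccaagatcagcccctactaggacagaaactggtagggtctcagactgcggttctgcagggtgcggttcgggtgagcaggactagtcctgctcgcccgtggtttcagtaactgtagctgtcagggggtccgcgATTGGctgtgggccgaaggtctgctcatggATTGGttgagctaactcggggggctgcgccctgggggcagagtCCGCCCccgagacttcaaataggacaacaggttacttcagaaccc
Lsr: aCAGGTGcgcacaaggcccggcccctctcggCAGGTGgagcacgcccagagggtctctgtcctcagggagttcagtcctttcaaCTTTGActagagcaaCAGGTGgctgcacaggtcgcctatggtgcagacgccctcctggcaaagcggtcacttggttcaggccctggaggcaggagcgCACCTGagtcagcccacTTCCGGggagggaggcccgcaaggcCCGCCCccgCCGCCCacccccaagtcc
Ocln: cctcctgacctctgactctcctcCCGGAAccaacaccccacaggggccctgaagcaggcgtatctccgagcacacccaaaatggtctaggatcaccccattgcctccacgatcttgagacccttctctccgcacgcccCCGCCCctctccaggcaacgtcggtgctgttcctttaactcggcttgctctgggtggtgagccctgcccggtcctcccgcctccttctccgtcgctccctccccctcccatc
The Lsr window held 4 matches to CAGGTG, 1 to CTTTGA, 1 to CCGGAA and 2 to GGGCGG. The Cldn5 window held 2 matches to CCAAT and 1 to GGGCGG, and the Ocln window 1 to CCGGAA and 1 to GGGCGG. Of 32851 windows of the same length over all genes, 17.2% held CAGGTG, 13.8% CTTTGA, 12.0% CCGGAA, 33.85% CCAAT and 32.7% GGGCGG. The GC box was present in 6 of the 7 members with a window, Tjp1, F11r and Marveld2 included, and not in the Cldn12 window searched. F11r also held 1 match to CAGGTG and 3 to CCAAT, and Cldn12 held 1 to CCGGAA. Where a gene had several windows (3 for Cldn12, 2 for Ocln and for Marveld2), only the 1 nearest to the annotated gene start was searched. The GC content was 59.6% for Cldn5, 66.8% for Lsr and 64% for Ocln. A match is a string of letters in this window and not a measured site.

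Cldn12 (claudin-12; chromosome 5, 5489537 to 5514958, minus strand) was not counted in brain ECs (0 in each library) and gave 16 and 400 counts in dura mater ECs, or 1.19 and 24.5 CPM, so the groups did not overlap. With dura mater ECs higher, the ratio was at least 59.2 when 3 counts are taken as the floor of each brain library. This bound rests on dura mater replicate 2, and with replicate 1 alone it was 5.50. The dura mater libraries were 20.5-fold apart, and Cldn12 did not pass (edgeR adjusted p 0.477, from 0.234 to 1.00 over the alternatives). Its annotated 3' end differs by 15478 bases between GENCODE M21 and RefSeq, against at most 452 bases for the other 8 genes. A 3' library counts reads at that end, and whether the count tables cover both ends of Cldn12 was not tested.

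Marveld2 (chromosome 13, 100595957 to 100616971, minus strand), the partner that Lsr recruits to tricellular contacts, gave counts of 12 and 0 in brain ECs against 0 and 38 in the dura mater. Each tissue had 1 library at 0, the groups overlapped, and no fold is given at such counts (edgeR adjusted p 1.00).

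Of the 3 junctional adhesion molecules, immunoglobulin-type proteins that also guide leukocytes through the vessel wall, none passed. F11r (JAM-A; chromosome 1, 171437535 to 171464603, plus strand) gave counts of 6202 and 9387 in brain ECs against 4627 and 9220 in the dura mater, or 428 and 710 CPM against 345 and 565 CPM. Its log2 ratio was -0.32 (SE 0.44, 95% interval -1.40 to 0.75, edgeR adjusted p 1.00), with the opposite sign, 0.02, without brain replicate 2. Jam2 (JAM-B; chromosome 16, 84774123 to 84825928, plus strand) had 4526 and 2801 counts versus 3586 and 4774, or 312 and 212 CPM against 267 and 292 CPM. The groups overlapped for both genes. The log2 fold change of Jam2 was 0.10 (SE 0.45, 95% interval -0.99 to 1.18, edgeR adjusted p 1.00), with the opposite sign, -0.05, when scaled to pan-endothelial genes and, -0.22, without brain replicate 2.

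Jam3 (JAM-C; chromosome 9, 27097384 to 27155421, minus strand) gave counts of 735 and 220 in brain ECs against 735 and 1338 in the dura mater, or 50.7 and 16.6 CPM against 54.8 and 82.0 CPM. The groups did not overlap, but brain replicate 1 and dura mater replicate 1 were nearly level. The log2 ratio was 1.02 (SE 1.34, 95% interval -2.23 to 4.26, edgeR adjusted p 1.00), and it ran from 0.36 without brain replicate 2 to 1.98 without brain replicate 1. The antisense gene Gm48796 covers 36.2% of the exon length of Jam3, none of it in the last 500 exon bases, where a 3' library reads. Platelets can also carry junctional adhesion molecules, F11r among them. Of 6 platelet genes 4 were counted, Gp9 and Treml1 were at 0 in every library, and the list summed to 130 and 0.680 CPM in brain ECs and to 121 and 33.3 CPM in dura mater ECs. The part of platelet RNA in F11r and Jam3 was not tested.

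Tjp1 (ZO-1; chromosome 7, 65296165 to 65527781, minus strand) gave counts of 3023 and 1341 in brain ECs against 1054 and 1536 in the dura mater, or 209 and 101 CPM against 78.6 and 94.1 CPM. Brain replicate 1 stood highest, and the other 3 libraries lay between 78.6 and 101 CPM. The means were 155 ± 75.8 and 86.3 ± 10.9 CPM (n = 2), with a log2 ratio of -0.84 (SE 0.71, 95% interval -2.55 to 0.86, edgeR adjusted p 0.915). It ran from -1.34 without brain replicate 2 to -0.28 without brain replicate 1.

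The CPM of brain and dura mater ECs did not overlap for 6 of the 9 genes, 4 with dura mater below (Cldn5, Lsr, Ocln, Tjp1) and 2 with dura mater above (Cldn12, Jam3). Over all genes tested the groups did not overlap for 43.1%, 16.9% with dura mater below and 26.2% with dura mater above. With 2 libraries per tissue the smallest two-sided p of an exact permutation test is 0.333, so single values such as sums and ratios are given below without a test.

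The 9 genes together held 0.387% (95% Wilson interval 0.384 to 0.390) and 0.367% (0.363 to 0.370) of all counts in brain ECs, against 0.117% (0.115 to 0.119) and 0.161% (0.159 to 0.163) in dura mater ECs. These intervals cover counting error only. Cldn5, Lsr and Ocln, grouped after their values were seen, summed to 2863 and 2789 CPM in brain ECs and to 435 and 530 CPM in dura mater ECs. The other 6 genes summed to 1000 and 1039 CPM in brain ECs and to 747 and 1060 CPM in dura mater ECs, with overlap. Of the counts of the 9 genes, Cldn5 and Lsr took 69.4% and 71.75% in brain ECs against 36.8% and 32.7% in dura mater ECs. The junctional adhesion molecules took 20.5% and 24.5% in brain ECs against 56.4% and 59.1% in dura mater ECs, while their summed level was 791 and 938 CPM against 667 and 939 CPM, with overlap.

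**Figure D2:**
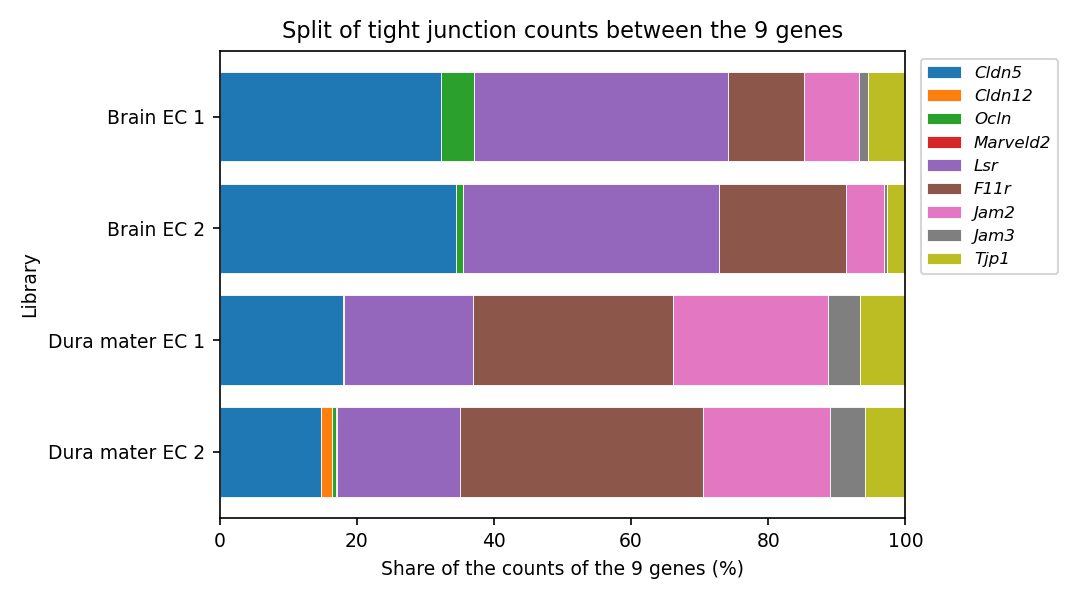
Share of the summed counts of the 9 genes (horizontal axis, %) taken by each gene, with 1 bar per library. Cldn5 and Lsr fill 69.4% and 71.75% of the bar in brain ECs against 36.8% and 32.7% in dura mater ECs, and F11r, Jam2 and Jam3 take 56.4% and 59.1% of the latter, at summed levels that overlap between tissues.

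Ratios between genes within a library need no scaling between libraries. Lsr per Cldn5 was 1.15 and 1.09 in brain ECs against 1.04 and 1.21 in dura mater ECs, so the ratios overlapped between tissues. F11r per Cldn5 was 0.343 and 0.539 in brain ECs against 1.62 and 2.40 in dura mater ECs. Cldn5 per Tjp1 was 5.98 and 12.99 against 2.71 and 2.50, and Ocln per Tjp1 was 0.881 and 0.415 against 0.00759 and 0.111. The 8 pan-endothelial genes were Pecam1, Cdh5, Tie1, Erg, Egfl7, Eng, Robo4 and Emcn, and none passed in edgeR. They were not all level between tissues. Cdh5, Tie1, Eng and Emcn lay higher in both dura mater libraries, Egfl7 and Robo4 lower, and Pecam1 and Erg overlapped. Relative to the summed counts of these 8 genes, Cldn5 stood at 22.4% and 16.6% in brain ECs against 3.52% and 2.87% in dura mater ECs. Lsr stood at 25.75% and 18.04% against 3.67% and 3.48%, and F11r at 7.70% and 8.95% against 5.71% and 6.91%. These are ratios of counts, which a 3' library does not divide by gene length.

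The profile of Lsr, the member with the highest mean CPM, was set against all 9347 genes tested by the distance between log2 CPM values centred on each gene's own mean over the 4 libraries. The nearest were Pik3ip1 (distance 0.152), Cldn5 (0.165) and Atp8a1 (0.207). Pik3ip1, an inhibitor of PI3K signalling, gave counts of 7076 and 6578 in brain ECs against 1111 and 1803 in the dura mater. Atp8a1, a phospholipid flippase, had 4494 and 4403 counts versus 760 and 992. Of the other members, Tjp1 was at a distance of 1.90, Ocln at 3.80 and Cldn12 at 8.33. All genes share the same 4 libraries, and the distance is a description.

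Beyond the 9 genes, 55 other tight junction genes were listed, of which 54 had a row, 37 had at least 1 count and 24 passed the filter. In edgeR 0 of them passed. With p under 0.05 before adjustment there were 6, 3 lower and 3 higher in dura mater ECs, where 10% of all genes tested reached it (2.97% lower, 7.04% higher). Their median log2 fold change was -0.40. In DESeq2 2 of the 24 passed, Marveld1 (higher) and Esam (lower), where 8.67% of all genes differed, 2.03% lower and 6.63% higher. That count is near the share over all genes.

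Marveld1, a four-span protein related to occludin and tricellulin, gave counts of 4946 and 2765 in brain ECs against 13688 and 14139 in the dura mater. Its log2 ratio was 1.78 (SE 0.40, edgeR adjusted p 0.195, DESeq2 adjusted p 0.00709), and the groups did not overlap. Esam, an endothelial cell adhesion molecule of the same immunoglobulin-type class as the junctional adhesion molecules, had 48457 and 53968 counts versus 24740 and 38022. Its log2 ratio was -0.83 (SE 0.28, edgeR adjusted p 0.432, DESeq2 adjusted p 0.0106), also with no overlap. Ildr2, an angulin related to Lsr, had 854 and 537 counts versus 586 and 137, with overlap (edgeR adjusted p 1.00).

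Of 12 scaffold genes tested, 7 had a log2 fold change below 0 and 5 above, and none passed in edgeR (2 at an unadjusted p under 0.05) or in DESeq2. Cgnl1 (paracingulin) gave counts of 5146 and 3966 in brain ECs against 1687 and 1458 in the dura mater, a log2 ratio of -1.60 (SE 0.49, edgeR adjusted p 0.381). Amotl1, an angiomotin-like scaffold, had 2889 and 1202 counts versus 7565 and 7172, a log2 ratio of 1.79 (SE 0.53, edgeR adjusted p 0.353). Cgnl1 and Amotl1 had groups that did not overlap, in opposite directions. The other named scaffolds were Mllt4 (afadin), Tjap1, Amot, Amotl2, Sympk and Ybx3, with log2 fold changes from -1.24 (Tjap1) to 0.19 (Ybx3) and edgeR adjusted p from 0.545 to 1.00. Of 6 polarity genes tested, 4 were below 0 and 2 above, and none passed in edgeR (0 at an unadjusted p under 0.05) or in DESeq2. Pard3, a core polarity scaffold, had a log2 ratio of -0.68 (SE 0.63) and Mpp5 (Pals1) of -0.21 (SE 1.37). Arhgef2, a guanine nucleotide exchange factor bound at junctions, had 2085 and 1699 counts versus 855 and 982, a log2 ratio of -1.13 (SE 0.74, edgeR adjusted p 0.740).

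**Figure D3:**
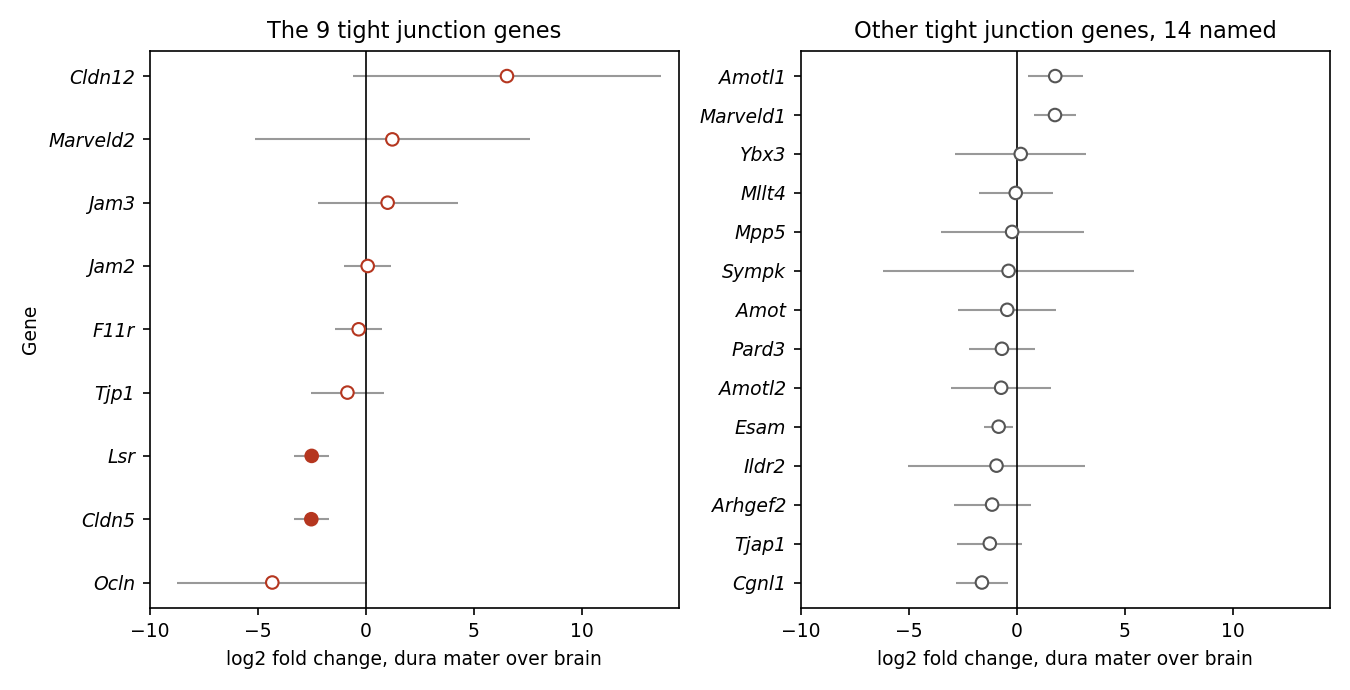
Log2 fold change, dura mater over brain, with its 95% interval from the edgeR fit (horizontal axis), for the 9 genes on the left and 14 other tight junction genes on the right; filled symbols passed at an adjusted p under 0.05. Cldn5 (-2.52) and Lsr (-2.50) are the filled symbols, Ocln, Cldn12 and Marveld2 have wide intervals, the position of the latter pair depends on the prior count since libraries are at 0, and no gene on the right is filled.

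Of the 21 other claudins with a row, 8 had at least 1 count and 1, Cldn11, passed the filter. Cldn11, Cldn2, Cldn15, Cldn22 and Igsf5 are named after their values were seen. Cldn11, a claudin of myelin and of the arachnoid barrier, had 260 and 174 counts in the dura mater and 0 in each brain library (edgeR adjusted p 0.466). Cldn2 had 1 and 236 counts, Cldn15 had 0 and 163, and Cldn22 had 431 and 0 in dura mater ECs, each with at most 1 count in a brain library. Igsf5, a further junctional adhesion protein, went the other way, with 309 and 168 counts in brain ECs and 0 in both dura mater libraries (edgeR adjusted p 0.466).

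Markers of other cells were read beside these low claudins. Of 6 oligodendrocyte genes 3 were counted, Mag, Mobp and Ermn were at 0 in every library, and the list summed to 102 and 0.302 CPM in brain ECs and to 106 and 14.0 CPM in dura mater ECs. Of 5 epithelial or arachnoid barrier genes 4 were counted, Krt19 was at 0 in every library, and the sum was 0.345 and 0.680 CPM against 1.12 and 2.76 CPM. Of 5 choroid plexus genes 4 were counted, Otx2 was at 0 in every library, and the sum was 0.0690 and 3.40 CPM in brain ECs and 1483 and 822 CPM in dura mater ECs, nearly all from Ttr (0 and 45 counts versus 19738 and 13352). The choroid plexus sum was thus high in both dura mater libraries and low in both brain libraries. Lymphatic endothelial genes, all 5 counted, summed to 0.207 and 0.529 CPM against 255 and 368 CPM, with Prox1, Lyve1, Ccl21a and Mmrn1 at 0 in brain ECs. Genes that respond to tissue handling, all 8 counted, summed to 3416 and 3673 CPM in brain ECs and to 17860 and 20910 CPM in dura mater ECs. The lymphatic and handling sums likewise lay higher in both dura mater libraries. Fibroblast genes (6 of 6 counted) summed to 7.38 and 50.7 CPM against 337 and 354 CPM. Col1a1, Col1a2, Col3a1 and Dcn lay higher in both dura mater libraries. Pdgfra (1 and 1 counts against 0 and 1) and Lum (3 and 3 against 4 and 0) did not. The sum of brain replicate 2 came mostly from Col3a1 (63 and 579 counts in brain ECs). Mural cell genes (7 of 7) summed to 621 and 1045 against 1119 and 579 CPM, mostly from Acta2 and Myh11. Kcnj8 (0 and 0 counts against 468 and 410), Cspg4 (0 and 1 against 263 and 65) and Tagln lay higher in dura mater ECs, and the other mural genes overlapped. Neuron genes (6 of 6) summed to 142 and 170 against 162 and 158 CPM, mostly from Stmn2 (141 and 169 against 141 and 152 CPM). Astrocyte genes (5 of 6 counted, Aqp4 at 0) summed to 0.552 and 0.529 CPM against 166 and 9.98 CPM. Leukocyte genes (8 of 9 counted, Cd3e at 0) summed to 51.5 and 52.9 CPM against 5.82 and 4.35 CPM. Their brain sums came from different genes in each replicate. These were C1qa (436 and 1 counts) and C1qb (289 and 4) in replicate 1 and Csf1r (4 and 646) in replicate 2. The part of these cells, of red cells or of handling in the tight junction values was not tested.

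**Figure D4:**
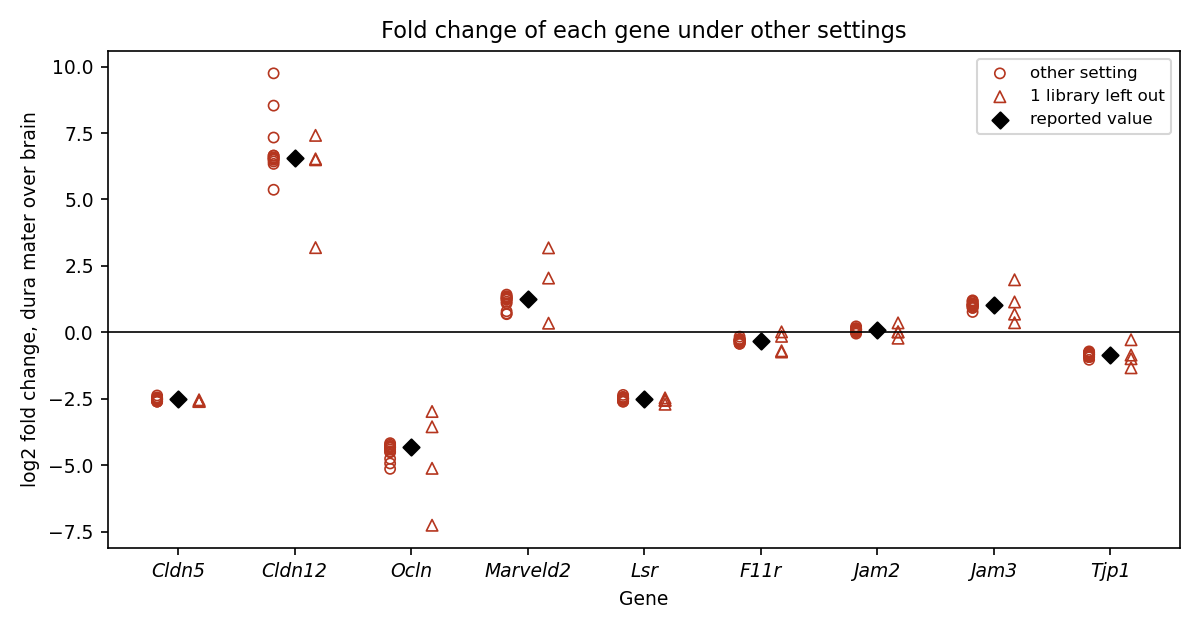
Log2 fold change, dura mater over brain (vertical axis), of each gene (horizontal axis) in the reported fit (diamond, edgeR), under other settings (circles) and with 1 library left out (triangles). Cldn5 keeps between -2.61 and -2.38 and Lsr between -2.71 and -2.36, while Ocln spans -7.26 to -2.98 and the values of F11r and Jam2 straddle 0.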

How the data were processed

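RNA was sequenced from 2 brain parenchyma and 2 dura mater EC libraries. The authors used a QuantSeq kit, in which each transcript is sequenced near its poly(A) tail, and deposited raw counts per gene symbol, 1 table per library. In these, 35 symbols take more than 1 line, and each line was tested on its own. The methods name TopHat and cufflinks, and the submitters' processing notes list Bowtie2, edgeR and mm10 without roles. The counting step, annotation, use of strand and use of molecular identifiers are not given in the sources used here. Groups came from the sample titles.

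Counts were tested with edgeR 4.0.16 (quasi-likelihood, older dispersion estimate, R 4.3.3) on the whole table, with TMM scaling, the filterByExpr filter, tissue as the only term, a prior count of 2 and Benjamini-Hochberg adjustment over 9347 genes, two-sided. The cufflinks test needs alignments, which were not used here. The SE is the size of the log2 fold change over the square root of F, and intervals use the fit's total degrees of freedom. CPM are counts over the TMM-adjusted library size. Libraries held 13518973 to 16096203 counts, so 3 counts, the floor, are 0.184 to 0.227 CPM. The common biological coefficient of variation was 1.39. Alternatives were DESeq2 1.42.0, limma-voom 3.58.1, edgeR's newer dispersion estimate, other scalings, filters, thresholds and prior count, a replicate block, removal of the 10 most counted genes and each library left out. Scripts were run on simulated counts that varied less than these data, which does not show how the tests behave here.

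The members, gene lists and tests were chosen with earlier results of these data known. Named genes are the 9 members, the 15 other listed tight junction genes with the highest mean CPM (and any that passed), the 3 genes nearest to the member with the highest mean CPM, and 5 markers. Coordinates are from GENCODE M21 (GRCm38), matched by symbol. A few listed genes are not reported here. The promoter windows are RefSeq sequences.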

Additional observations from a re-analysis of the deposited data

How the results depend on the processing

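In edgeR 2 of the 9 genes passed, Cldn5 and Lsr. This count was 1 with upper-quartile scaling and after removal of the 10 most counted genes (Cldn5 in both), 0 with scaling to pan-endothelial genes, 0 at an adjusted p under 0.01, and 0 to 3 with 1 library left out. It was 0 without either dura mater library and 3, with Ocln, without brain replicate 2. The 9 genes' median log2 fold change, -0.32, ran from -0.87 to -0.15 with 1 library left out, the former without dura mater replicate 2, where 8 of the genes passed the filter. The median of all genes tested moved too in these fits. It was 1.03 and 0.95 without brain replicates 1 and 2, and 0.14 and -0.19 without dura mater replicates 1 and 2, against -0.01 in the reported fit. Signs reversed for F11r without brain replicate 2 (0.016, the other end of its range being -0.74 without dura mater replicate 2), and for Jam2 without brain replicate 2 (-0.22, against 0.35 without brain replicate 1) and with pan-endothelial scaling (-0.051). Of the other tight junction genes, 0 passed in edgeR, 2 in DESeq2 and with the newer dispersion estimate, 1 without a filter, 1 with at least 10 counts in every library, and 0 to 2 with 1 library left out. The cause was not tested. Upper-quartile scaling moved the median of all genes by 0.14. Over all genes 57 passed, against 810 in DESeq2, 326 without a filter, 306 with the newer dispersion estimate, 141 with at least 10 counts in every library, 35 with pan-endothelial scaling, 1 at an adjusted p under 0.01, 740 and 701 without brain replicates 1 and 2, and 97 without dura mater replicate 2. A lone library was there assumed to vary like the other tissue.

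With the replicate number as a block, the 9 genes gave 2 calls, Cldn5 and Lsr, 1 other tight junction gene passed (Marveld1), and 224 genes passed in all, against 57. The samples share only a number: across genes, same-numbered libraries deviated from their tissue means with a correlation of -0.0208. Cldn12 and Marveld2 had few counts in most libraries and replicates that lay far apart, and the cause was not tested.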
